A study of Mus musculus with 6 samples.

Results

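The Agilent mouse arrays of this series carry 16181 probes for intergenic noncoding regions, each named by a genomic interval of build mm9 and by a strand letter, F or R. They are 16181 of the 55681 probes on the array, controls aside. Regions were chosen by detection: a probe stayed in when the scanner software flagged its signal as well above background on 3 or more of the 6 arrays, young or old. This kept 6988 probes (43.2%) and left out 9193, of which 7270 were not above background on any array. Signal on these arrays chose the members, so how bright they are is a description and not a finding, and the rule made no use of the difference between the ages. The kept probes covered 3282 of 4607 interval and strand names, in 2574 of 3540 intervals. Each name was represented by its brightest probe, the one with the highest mean over the 6 arrays, and 3270 names were tested, 1625 on F and 1645 on R. "Region" below means one such name.

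Intergenic long noncoding RNAs are transcribed outside protein-coding genes, often spliced and polyadenylated like messenger RNAs, and commonly less abundant than they are. Many were first found as stretches of chromatin that carry the histone marks of active promoters and of transcribed gene bodies but hold no known gene. Some recruit or bind chromatin complexes such as the polycomb complex PRC2, some act on the genes beside them, and many short-lived ones are degraded by the nuclear exosome. Transcription of a region can run on both strands from separate start sites, and probes designed to either strand are meant to read each strand on its own.

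The RNA came from marrow cells sorted from C57BL/6 mice, which the labels call mesenchymal stem cells of the bone marrow. The young group is 3 samples from mice aged 3 months and the old group 3 samples from mice aged 24 months, and no other treatment or allele is named for either group. The markers of the sort are not named, and nothing says that each sample is a separate animal. The p-values therefore reflect only how far these samples differ among themselves, which may be technical. Whole RNA was labelled with pCp-Cy3, 1 colour per array. Whether the strand letter of a probe names the strand of the RNA it detects with this label was not tested. F and R below are therefore the letters of the probes. All young arrays lay in row 1 of the slide and all old arrays in row 2, so slide row and age cannot be told apart.

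The labelled cell type was only partly borne out. Of 16 stromal marker genes on the array, 11 were tested, and Pdgfra, Pdgfrb, Prrx1, Foxc1 and Twist1 were never flagged as well above background. Of the tested ones, 1 was higher in old samples (Lepr, the leptin receptor) and 3 were lower (Col1a1, a fibrillar collagen, the chemokine gene Cxcl12, and Thy1, a surface antigen that T cells also carry). Col1a1 met the detection rule through the young arrays alone, so its direction was fixed by that rule. Over the tested stromal genes the median level ran from -0.82 to 1.02 (log2, relative to the array's 75th percentile) on the young arrays and from -2.20 to -1.16 on the old. Of the markers of other cells, 6 of 10 leukocyte genes, 5 of 9 B cell genes and 6 of 8 monocyte genes were lower in old samples, where 4.04% of all names were. The monocyte gene Mrc1, counted among the lower ones, likewise met the rule through the young arrays alone. The median level of the 10 leukocyte genes was 2.10 to 3.31 on the young arrays and 1.18 to 1.55 on the old. Of 10 neutrophil genes 3 were lower, of 8 T cell genes 1 was lower and 2 higher, and of 5 endothelial genes 1 was higher. Over all names 3.98% were higher. The 9 erythroid genes, none of them called, had medians of 4.84 to 4.94 and 4.79 to 5.10. These shifts move with age, as the changes of the regions below do, and their part in those changes was not tested. In bulk RNA, fewer cells of a type and less RNA per cell cannot be told apart.

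Fewer region probes were above background on the old arrays. The share was 48.7%, 48.9% and 41.1% on young arrays 1 to 3, and 39.9%, 39.2% and 37.3% on old arrays 1 to 3. Young array 3 lay nearer to the old arrays than to the other young ones, and the groups did not overlap. Probes for protein-coding RefSeq transcripts went the same way, from 69.3%, 69.1% and 66.4% to 64.1%, 63.7% and 61.8%. The arrays of the old samples were also dimmer as a whole. Their 75th percentile signals were 319, 250 and 229 against 376, 393 and 315 for the young. Among the kept region probes, 255 were above background on all 3 young and no old array, and 1 on all 3 old and no young array. Only 5357 were above background on all 6 arrays.

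**Figure D1:**
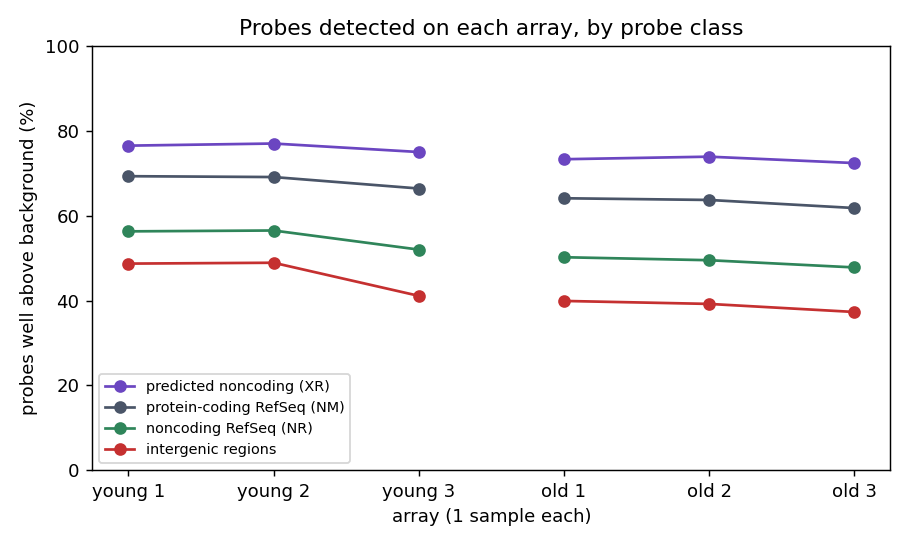
Percent of probes that the scanner software marked well above background (y axis) on each of the 6 arrays (x axis), for intergenic regions and 3 classes of RefSeq transcripts, with lines joining arrays of 1 age group. Intergenic regions were the least often detected class shown, at 37.3% to 48.9%, and every class was detected less often on each old array than on young arrays 1, 2 and 3.

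Coverage of the intervals was uneven. A name had a median of 3 probes (at most 10), and of the 3917 names with at least 2 probes only 608 had every probe kept, while 2352 names had some kept and some left out. Detection was close on the strands: 3414 of 8171 F probes and 3574 of 8010 R probes were kept. Of 1067 intervals designed on both strands, both were detected in 708 (66.4%), 1 in 287 and neither in 72. Of 2473 intervals designed on a single strand, 1579 (63.9%) were detected. Intervals ran from 62 to 7128487 bp, with a median of 10676 bp. They are not all separate loci, because 1306 tested regions (39.9%) overlapped another tested region on the same strand.

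The regions were then compared between the ages, in a limma fit over all 23266 names on the array that passed the same detection rule. At an adjusted p (Benjamini-Hochberg) below 0.05, 253 regions were higher in old samples (7.74%, against a background of 3.98% of all names). In the other direction, 49 regions were lower (1.5%, background 4.04%). The background for either direction was 8.01%. No region was called in either direction when the filter on dim probes was left out or when the replicate number was a block. At an unadjusted p below 0.05 those limma fits had 1217 and 867 regions, among 11662 and 5554 of all names. The fit without the filter tested more names. With normexp background correction 25 of the 49 lower regions kept their call and 40 kept their sign. The old samples lay wholly above the young ones in 930 regions (28.4%, background 22.9%) and wholly below them in 157 (4.80%, background 13.1%). These shares were 38.4% and 6.02% among predicted noncoding models, so this lean was not particular to the regions. They were 22.0% and 9.60% among noncoding RefSeq names, and 20.2% and 17.1% among protein-coding ones. The median change of the regions was 0.17 on the log2 scale, against 0.07 over all names, and 2372 of the 3270 regions had a positive change. All values are relative to each array's own 75th percentile, so the position of zero depends on that scaling. With the deposited log2 values the median of the regions was 0.09 and that of all names -0.01. The calls split 83.8% higher among regions and 49.6% among all names, and the latter split was 39% with the deposited values and 62% with normexp background correction.

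A name seen only on the young arrays had to come out lower, so the same fit was also read over names above background on all 6 arrays. There 250 of 2767 regions were higher (9.04%, background 4.41%) and 26 lower (0.94%, background 3.06%). Without the names detected on fewer arrays, then, the higher calls were nearly all still present, while 23 of the 49 lower calls were not among them. By class of name, 2.93% of protein-coding RefSeq names were higher and 5.45% lower. Predicted noncoding models came to 3.61% and 1.20%, noncoding RefSeq names to 4.64% and 3.41%. The difference between regions and these classes was not tested.

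By the fitted values the higher calls were small and the lower calls larger. The higher regions had a median change of 0.69 on the log2 scale (0.39 to 1.70) with a median standard error of 0.12. Of the 3270 regions, 23 were called at least 2-fold higher (background 0.55%). The median change of the lower regions was -1.14 with a median standard error of 0.18. Of the 3270, 28 were called at least 2-fold lower (background 2.93%), 4 of them at least 4-fold by the fitted value. Among the 2767 regions above background on all 6 arrays, 21 were called at least 2-fold higher. There 13 were at least 2-fold lower and 1 at least 4-fold, where 391 and 83 of 17586 other names were. The other large falls include arrays on which the region was not well above background. Adjusted p ran only from 0.0175 to 0.0497 over all 302 calls, close to the threshold. The counts therefore depended strongly on which samples were fitted. A fit with a sample left out also has fewer samples, and that effect was not told apart from the sample itself. Without old sample 2, 0 regions were higher and 1 lower; without old sample 3, 0 and 0; without young sample 2, 1 and 3; without young sample 3, 16 and 15; without young sample 1, 83 and 21; without old sample 1, 177 and 25. In the same order, these fits called 0 of all names higher and 1 lower, 0 and 5, 13 and 50, 79 and 242, 314 and 454, and 558 and 596. At an unadjusted p below 0.05 the limma fits without old sample 2 and without old sample 3 had 764 and 755 regions, against 949 with all samples. Over all 23266 names the same counts were 5022, 4960 and 6470.

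**Figure D2:**
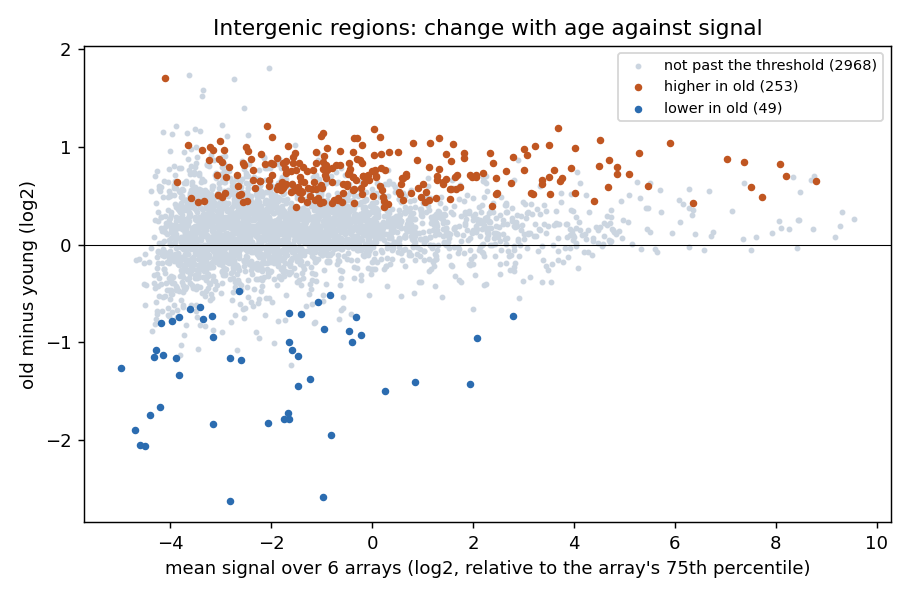
Change with age (old minus young, log2, y axis) against the mean signal over 6 arrays (log2 relative to the array's 75th percentile, x axis) for the 3270 tested regions, each a point. The 253 higher regions (orange) lie between 0.39 and 1.70 and the 49 lower regions (blue) reach -2.62, with the lower ones toward the dim side.

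Calls in each direction sat at different signals. The median signal of the higher regions was -0.37 and that of the lower regions -2.06, against -1.66 for all tested regions (each log2, relative to the array's 75th percentile). Among the 108 regions with a mean signal below -4, 1 was higher and 10 lower (9.26%), where 103 of 593 other names that dim were lower (17.4%). Among the 116 with a mean signal above 4, 21 were higher (18.1%) and 0 lower, and the median change was 0.23. In the same fit 75 of 3617 other names in that bright range were higher (2.07%). The higher regions came from 20 chromosomes and the lower from 17. Chromosomes 14, 16 and X had 12, 12 and 7 higher regions and no lower one, among 139, 104 and 120 tested. Their higher shares were 8.63%, 11.5% and 5.83%, against 7.74% over all regions. Only 1.5% of all regions were lower, so few lower calls would fall on any chromosome. No pattern by chromosome is read from these counts.

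A large loss with age, measured on all 6 arrays, was in chr8:26212577-26218527_R, an interval of 5951 bp. Its log2 signal, set against each array's own 75th percentile, was 0.31, 0.37 and 0.29 in young samples 1 to 3 and -1.94, -2.86 and -1.98 in old samples 1 to 3. The young samples lay close together and every old sample was below them by more than their range. The region fell by 2.58 ± 0.25 on the log2 scale (SE; 6.00-fold, limma adjusted p = 0.0178). All 5 of its probes went down, 4 of them past the threshold when each probe was fitted on its own, from -0.78 to -2.58. The opposite strand of the interval, chr8:26212577-26218527_F, changed by -0.27 ± 0.19 (adjusted p = 0.391), with young values of -0.69, -0.42 and -0.25 and old values of -0.56, -1.07 and -0.54 that overlapped.

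Among the lower regions detected on all 6 arrays, chr1:134867906-134885481_R had values of 0.06, -0.18 and 0.63 in young samples and -1.51, -1.95 and -1.89 in old ones. It fell by 1.95 ± 0.23 (3.87-fold, adjusted p = 0.0222), but the call rested on 1 of its 8 kept probes. The other 7 changed by -0.17 to 1.04 and none passed. In chr6:40693617-40720167_F, by contrast, 3 of 4 kept probes were called. Its brightest probe read -1.57, -0.66 and -0.02 in young and -2.23, -2.51 and -2.87 in old samples, a fall of 1.79 ± 0.40 (adjusted p = 0.0489). chr3:117935228-118089771_F fell by 1.82 ± 0.36 and chr8:80581177-80621652_F by 1.78 ± 0.35. Of these, the first had a second kept probe that changed by 0.30, and the second had a single kept probe.

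Several lower regions left the detectable range in old samples, so only a bound can be given. The bound sets the mean of the brighter group against the dimmest signal that still counted as well above background on each array of the other group. chr2:128137419-128141735_R read -4.0, -3.56 and -2.85 in young samples and was not well above background on any old array, which makes it at least 1.67-fold lower (adjusted p = 0.028). In the same way chr6:99472981-99484210_R was at least 1.55-fold lower and chr7:69008096-69070309_R at least 1.37-fold lower. All 3 met the detection rule through the young arrays alone, so their direction was fixed by that rule and their p is no support for a fall. Of the 49 lower regions, 15 were not well above background on any old array. chr3:131128972-131163308_R and chr1:175653557-175671940_R were above background on 1 old array only. The latter had the largest fitted fall, 2.62 ± 0.48 (adjusted p = 0.0334), from -1.46, -2.15 and -0.94 in young to -3.42, -5.03 and -3.96 in old samples.

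The 2 largest called gains were of dim regions. chr17:17143325-17181500_R was not well above background on any young array and read -3.20, -3.15 and -3.40 in old samples, at least 2.42-fold higher (adjusted p = 0.0175). It met the detection rule through the old arrays alone, so its direction was fixed by that rule and its p is no support for a rise. Next came chr15:38205154-38206196_F, at -2.72, -2.61 and -2.75 in young and -1.75, -1.40 and -1.29 in old samples, a rise of 1.21 ± 0.14 (2.32-fold, adjusted p = 0.0222). Both regions had a single kept probe. In each, all old samples lay above all young samples.

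Brighter regions rose by similar amounts. chr9:14480441-14483362_F read 3.38, 2.82 and 3.04 in young and 4.07, 4.23 and 4.53 in old samples, a rise of 1.20 ± 0.18 (adjusted p = 0.0271), and its second kept probe changed by 0.48 without passing. chr11:97505439-97522274_F, at 4.27, 3.75 and 3.96 and then 4.94, 4.90 and 5.33, rose by 1.07 ± 0.18 (adjusted p = 0.0293), the only one of its 5 kept probes to pass. chr11:3542140-3546888_R read 0.97, 0.90 and 0.45 in young and 1.87, 1.59 and 2.15 in old samples. It rose by 1.1 ± 0.20 (adjusted p = 0.033), and all 3 of its probes were called, between 1.08 and 1.21. chr9:66976750-67014625_R, chr17:29378878-29379589_F, chr14:65720392-65769859_R, chr12:12768528-12849976_R and chr1:173250734-173259306_F complete the 10 largest, with rises of 1.1 to 1.18.

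**Figure D3:**
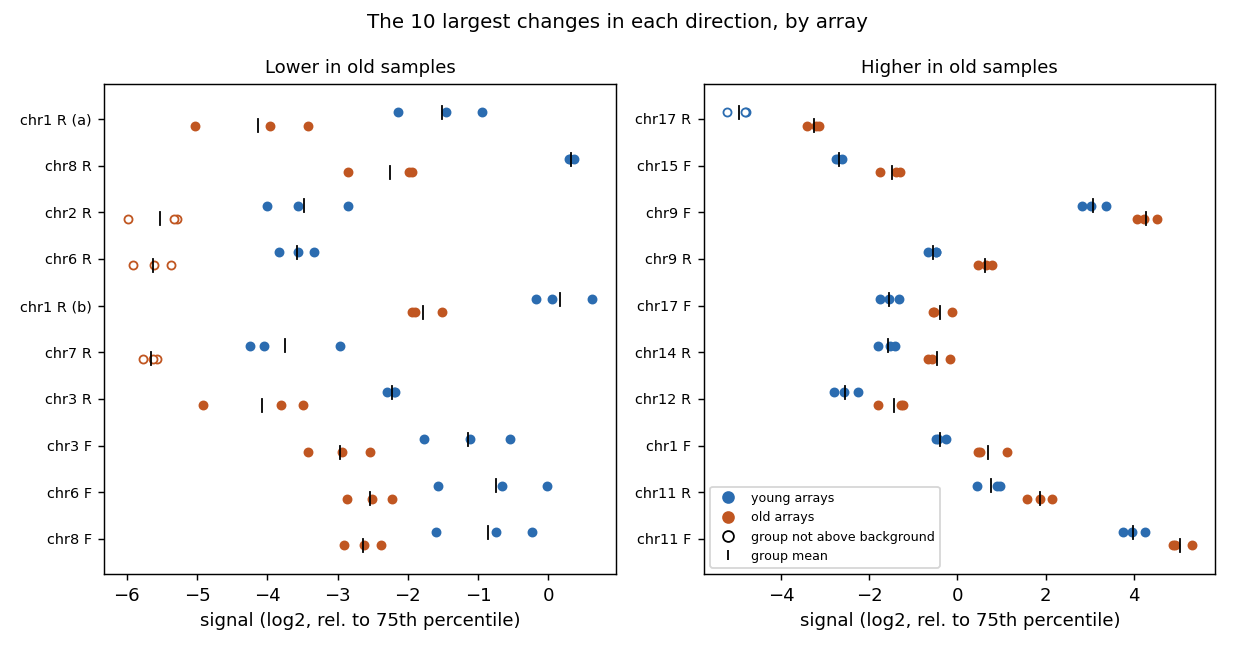
Signal on each array (log2 relative to the array's 75th percentile, x axis) for the 10 largest called changes in each direction (y axis, chromosome and strand), with young arrays in blue, old arrays in orange, group means as ticks, and open circles for a group in which no array was above background. In all 20 regions the old values lie outside the range of the young values.

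The brightest regions mostly did not pass the test. chr11:22681800-22707775_R read 9.47, 9.35 and 9.43 in young and 9.59, 9.77 and 9.68 in old samples (0.26 ± 0.09, adjusted p = 0.122). chr7:108209996-108216032_R changed by 0.19 ± 0.09, chr17:17481706-17482457_R by 0.08 ± 0.10 and chr14:78924115-78938125_F by 0.16 ± 0.14. The exception was chr12:73838608-73862621_F, which rose by 0.65 ± 0.13 (adjusted p = 0.0371) from 8.61, 8.31 and 8.53 to 8.95, 9.20 and 9.25. Its 2 other kept probes were far dimmer, at mean signals of -1.28 and -3.56, and neither passed. The R strand of the interval, by its brightest probe, moved by 0.54 ± 0.13 without passing (adjusted p = 0.0587). The 3 other kept R probes had mean signals of -3.49 to 0.21, and none passed. chr12:73860757-73862034_R, which lies within that interval, was called lower (-0.63 ± 0.10, limma adjusted p = 0.0276).

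The remaining 3 of the 8 brightest regions were nested intervals of chromosome 17. chr17:39960567-39992817_F changed by 0.70 ± 0.20 (adjusted p = 0.0891), chr17:39983902-39985688_F by 0.66 ± 0.19 (adjusted p = 0.0844) and chr17:39982023-39983277_F by 0.33 ± 0.11 (adjusted p = 0.128). In each of the 3, all old values lay above all young values. This stretch of the mouse genome is known to hold a copy of the pre-ribosomal RNA gene Rn45s, a family with many near-identical copies, so what these probes read is uncertain.

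The 2 strands of an interval were compared within each array, as the difference F minus R, in 702 intervals with both strands tested. That difference changed with age in 33 intervals at an adjusted p below 0.05 (4.7%, limma with Benjamini-Hochberg over the 702). F gained on R in 21 of them and R on F in 12. At an unadjusted p below 0.05 there were 189. Neither strand was called in 567 intervals and exactly 1 strand in 128. In 28 of those 128 the strand difference itself passed, and in the other 100 a call on one strand alone does not show that the strands differed. Both strands were higher in 6 intervals and both lower in 0. The count of 33 was 3 to 10 when any 1 sample was left out.

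The strand differences with the smallest p were large. In chr6:99472981-99484210 the difference F minus R was 1.44 in young and 4.18 in old samples, a change of 2.75 ± 0.17 (adjusted p = 0.000476). The F strand there read -2.01, -2.47 and -1.94 in young and -1.38, -1.62 and -1.34 in old samples, without passing on its own (0.69 ± 0.17, adjusted p = 0.0593). Because its R strand was not well above background on any old array, the size of that change depends on values below the detectable range, and the rule that kept R had already fixed its direction. In chr8:26212577-26218527, measured on every array, F minus R went from -0.78 to 1.53, a change of 2.31 ± 0.19 (adjusted p = 0.00211).

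In 1 interval the fit called the strands in opposite directions, with F undetected in old samples. chr8:27129927-27137444_R rose by 0.64 ± 0.13 (adjusted p = 0.0392), from -2.27, -2.16 and -1.92 in young to -1.45, -1.62 and -1.35 in old samples. chr8:27129927-27137444_F went from -3.72, -3.36 and -3.31 to values not well above background on any old array (adjusted p = 0.047). Their fitted difference changed by -1.39 ± 0.15 (adjusted p = 0.00738). F met the detection rule through the young arrays alone, which fixed its direction. The fitted difference rests on old F values that were not flagged as well above background. The rise of R is the measured side of this pair.

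Intervals with the smallest p on a strand gave the following pairs. chr3:41143423-41359623_F read 2.67, 2.76 and 2.73 in young and 3.60, 3.77 and 3.81 in old samples, a rise of 1.01 ± 0.09 (2.01-fold, adjusted p = 0.0175). Only 1 of its 4 kept probes passed, and the other 3, all much dimmer, changed by -0.22 to 0.59. The R strand of that interval changed by 0.40 ± 0.19 (adjusted p = 0.228). On chromosome 1, chr1:183142656-183163206_R rose by 0.81 ± 0.08 (adjusted p = 0.019) from -1.08, -1.04 and -1.02 to -0.33, -0.20 and -0.19, and F there changed by 0.12 ± 0.11. In chr15:77164450-77201325 the F strand fell by 1.0 ± 0.10 (adjusted p = 0.0207), while R changed by -0.53 ± 0.18 (adjusted p = 0.12). In chr4:118723941-118757032 the F strand rose by 0.71 ± 0.08 (adjusted p = 0.0219), and R changed by 1.18 ± 0.27 without passing (adjusted p = 0.0542). The standard error of that R strand was the larger one.

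Of the 4 intervals brightest on both strands, chr12:73838608-73862621 had the only called strand. In chr17:39960567-39992817, whose F strand is described above, R changed by 0.38 ± 0.19 (adjusted p = 0.246). In chr5:34696192-34722842 the changes were 0.41 ± 0.16 on F and 0.63 ± 0.19 on R, and in chr7:108209996-108216032 they were 0.23 ± 0.09 and 0.19 ± 0.09. None of these other strands passed. Over the 702 intervals, the changes of the strands had a Pearson r of 0.04, with the same sign in 64.1%. For the 2 brightest probes of 1 strand the r was 0.36 over 1829 regions, with the same sign in 69.1%. All these points share the 6 arrays and their scaling, and neighbouring intervals overlap, so no p is given.

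**Figure D4:**
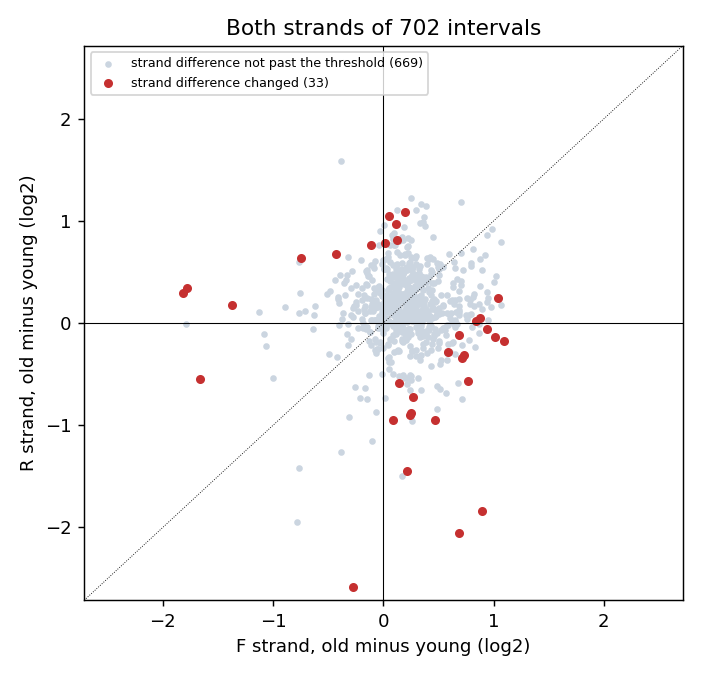
Change with age (old minus young, log2) on the F strand (x axis) against the R strand (y axis) for 702 intervals with both strands tested, each a point, with the dotted line marking equal change. The 33 intervals whose strand difference changed (red) lie away from that line, 21 of them below it and 12 above it.

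Other probes of the same region were read next, because a call belongs to the chosen probe. Of the 253 higher regions, 159 had another kept probe, 337 probes in all. These had the same sign in 74.5%, against 68.4% over all tested regions, but their median change was 0.19 where that of the chosen probes was 0.68. When every probe was fitted on its own, 30 of the 337 (8.90%) were also called higher, in 24 regions, and 11 were called lower. In that fit, 4.03% of all kept probes were higher and 3.77% lower. Of the 49 lower regions, 31 had another kept probe. Of those 74 other probes, 82.4% had the same sign, the median change was -0.83 and 31 (41.9%) were also called lower, in 15 regions. Some of the 74 met the detection rule through the young arrays alone, as both other probes of chr3:131128972-131163308_R did. That rule fixed their direction, so their part in these shares is no support for a fall. Among all kept region probes, 255 were of this kind and 1 of the reverse kind. Protein-coding RefSeq names gave similar shares, 12.6% of other probes for the higher calls and 36.5% for the lower.

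Some regions were called by many of their probes. The following were chosen after their values were seen. chr19:53517903-53540753_R had 10 probes, all kept, and 9 were lower, with changes from -1.33 to -2.45. No old array detected 6 of the 10, so the fitted sizes of those are not measured changes. Its brightest probe read -0.89, -0.90 and -0.43 in young and -2.09, -2.43 and -2.05 in old samples, a fall of 1.45 ± 0.17 (adjusted p = 0.0222). On the other strand, chr19:53517903-53540753_F read 0.36, 0.39 and 0.60 and then 0.50, 0.68 and 0.80, a change of 0.21 ± 0.12 that did not pass (adjusted p = 0.296). The strand difference changed by 1.66 ± 0.19 (adjusted p = 0.00738).

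On the side of gains, chr16:93121505-93142255_R had all 5 probes higher, from 0.59 to 1.13. Its brightest probe read -1.34, -1.23 and -1.65 in young and -0.37, -0.78 and -0.36 in old samples. In chr7:66562376-66579519_F, 7 of 9 kept probes were higher and all 9 had a positive change, from 0.41 to 1.03. The region was not called, because its brightest probe, at -0.20, -0.14 and -0.22 and then 0.07, 0.28 and 0.35, missed the threshold (0.41 ± 0.10, adjusted p = 0.0603). The R strand of that interval changed by -0.04 ± 0.15. Over all regions, 32 had at least 2 probes called higher, 30 at least 2 called lower and 8 had probes called both ways. Probes seen on the young arrays alone enter the counts of lower ones.

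**Figure D5:**
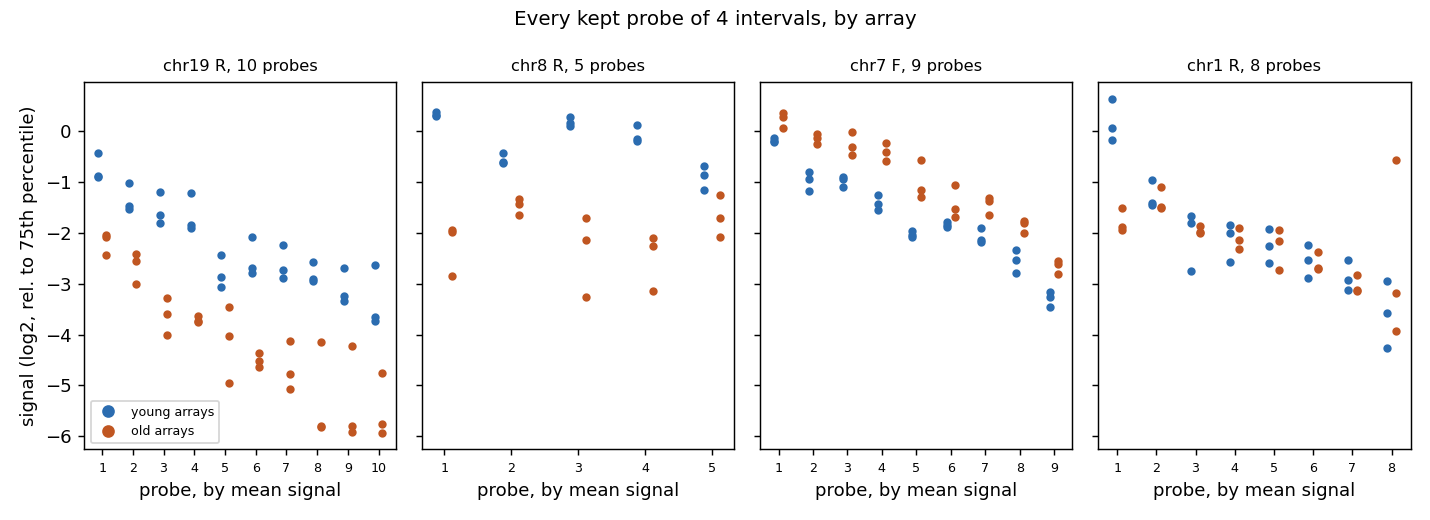
Signal (log2 relative to the array's 75th percentile, y axis) on young (blue) and old (orange) arrays for every kept probe of 4 regions, ordered by mean signal (x axis). On chromosomes 19 and 8 all probes are lower in old samples and on chromosome 7 all 9 are higher, whereas on chromosome 1 only the brightest of 8 probes passed the threshold.

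Regions within 100 kb of each other formed 1341 groups, 699 of them with a single interval. The most densely covered, chr12:110653148-111080561, held 14 intervals and 17 regions, of which 2 were higher, 0 lower, and the median change was 0.33. This part of chromosome 12 is known as the imprinted Dlk1-Dio3 domain, whose maternally expressed noncoding RNAs include Meg3, Rian and Mirg. chr12:110944403-110988678_F rose by 0.89 ± 0.15 (adjusted p = 0.0285), from 1.62, 1.25 and 1.26 in young to 2.11, 2.25 and 2.45 in old samples. chr12:110738120-110769295_F rose by 0.89 ± 0.17 (adjusted p = 0.0366). Other F regions there did not pass, such as chr12:110842154-110883594_F at 0.33 ± 0.15 and chr12:110973190-110987668_F at 0.09 ± 0.12. The largest fitted change of the group, 1.81, was not called (adjusted p = 0.14) and was led by old sample 1: chr12:110842149-110845695_F read -2.73, -3.23 and -2.87 in young samples and 0.45, -2.01 and -1.83 in old ones.

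The next most covered groups held few calls. Of 16 regions in chr8:122712014-123008463, 1 was higher, chr8:122712014-122732520_F at 0.58 ± 0.12 (adjusted p = 0.0425). All 16 fitted changes were positive, from 0.03 to 0.78. None of 12 regions was called in chr2:176583825-177818050 or of 12 in chr13:94182877-94203935, and 1 of 11 was higher in chr8:19678750-20038750. On chromosome 1, in a group chosen after its values were seen, chr1:175705225-175717250_R fell by 1.5 ± 0.24 (adjusted p = 0.0276), from 1.16, 0.50 and 1.36 to -0.38, -0.36 and -0.72, with 4 of 5 probes called. In the same group chr1:175654606-175672031_R, which overlaps chr1:175653557-175671940_R described above, also had 4 of 5 probes called lower, although its brightest probe missed the threshold (adjusted p = 0.0782). The dimmest of those called was not well above background on any old array. On chromosome 2, chr2:128211990-128215223_R fell by 1.14 ± 0.14 (adjusted p = 0.0222) near chr2:128137419-128141735_R described above.

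Long noncoding RNAs with names of their own are measured by other probes. Intervals were not matched to genes, so a region may read the same RNA as one of these named genes. Of 40 such genes, 25 were on the array and 19 tested, of which 2 were higher and 1 lower. Over all names 3.98% were higher and 4.04% lower, and a list this short can hold a few calls at those shares. Tug1, which is known to bind PRC2, rose by 1.09 ± 0.18 (adjusted p = 0.0298), from 0.90, 0.74 and 0.48 in young to 1.79, 1.5 and 2.10 in old samples. Over the mean of its probes the change was 0.31 and did not pass (adjusted p = 0.081). The Tug1 values lay close to those of chr11:3542140-3546888_R, at 0.97, 0.90 and 0.45 in young and 1.87, 1.59 and 2.15 in old samples. Whether both read the same RNA was not tested, so they are not taken as separate findings. Ftx, a gene of the X inactivation centre, rose by 0.63 ± 0.08 (adjusted p = 0.0222). Neat1, the scaffold of nuclear paraspeckles, fell by 0.88 ± 0.13 (adjusted p = 0.0269), from 2.45, 2.65 and 2.60 in young to 1.49, 1.93 and 1.63 in old samples. Malat1 changed by -0.60 ± 0.30 (adjusted p = 0.248). The bright snoRNA host genes Snhg1, Snhg3, Snhg6 and Snhg12 changed by -0.04 to 0.10.

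Genes of PRC2, of the nuclear exosome and of histone methylation were read beside the same shares of 3.98% higher and 4.04% lower. The lists are short, so a single call in one of them is not a result about the list. Of 11 PRC2 genes, 1 was lower, Phf1, an accessory subunit, by -0.80 ± 0.17 (adjusted p = 0.0465), and the median was -0.04. Of 17 nuclear exosome genes, 1 was higher, the core subunit Exosc4, at 0.43 ± 0.08 (adjusted p = 0.035), and the median was 0.15. None of 9 genes linked to histone methylation at promoters and gene bodies passed, and not all of these encode the enzymes themselves. The catalytic subunit Ezh2 changed by -0.18 ± 0.09 (adjusted p = 0.277).

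At the dim edge of the kept set stood chr11:35805295-35817263_R and chr7:69008096-69070309_R, with mean signals of -4.98 and -4.70. Both were above background on the 3 young arrays only. The first read -4.46, -4.46 and -4.14 in young and -5.30, -5.48 and -6.05 in old samples. Its fitted change was -1.26 ± 0.21, no fold is given since the young mean did not exceed the bound, and under normexp background correction the sign turned (0.17). Just outside the rule, above background on 2 arrays, were chr3:37659958-37665945_F and chr17:84397891-84412748_F, with mean signals of -3.63 and -3.64. In both, old sample 1 was the highest, at -0.69 and -1.38.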

How the data were processed

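The 6 scanner files give spot intensities, deposited by the authors in the form Agilent Feature Extraction writes. Software version 10.7.3.1, a probe design on mm9 and background subtraction within each array stand in the file headers. The submitters' processing notes give version 10.5.1.1 instead. A second deposited table holds log2 values with column medians of 4.91, 4.92 and 4.95 (young samples 1 to 3) and 4.94, 4.92 and 4.87 (old samples 1 to 3). How it was scaled is unknown here, and it served as an alternative.

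Controls and spots marked as outliers were left out, repeated spots averaged, and log2 intensities set relative to each array's 75th percentile. The ages were compared over all 23266 names by lmFit and eBayes of limma 3.58.1 (R 4.3.3), with Benjamini-Hochberg adjustment at 0.05. The steps were tested on simulated data, and tables were made with Python 3.11.15 and pandas 2.3.3. A precision limit is the number of arrays, 3 per group.

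The members and lists were chosen with earlier results of these data known. Named by rule were the 10 largest called changes in each direction (groups apart, brighter group detected on all its arrays), the 8 brightest regions, 6 intervals with a called strand, 4 bright on both strands, the 5 densest groups of intervals and the 2 regions nearest each side of the detection rule. Probe sequences are not shown, and intervals were not matched to annotated genes, because no mm9 genome was used here. Alternatives were quantile and cyclic loess normalization, normexp background correction (offset 50, on median signals), the deposited values, other filters, outlier spots kept, every probe on its own, a replicate block, samples left out and, added after seeing the data, the mean of the kept probes.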

Additional observations from a re-analysis of the deposited data

Results flagged for a closer look

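Outside the regions described above, 13 probes are named by 3 intervals without a strand letter. Of 5 probes for an interval on chromosome 17, 4 were well above background on all 6 arrays, at -2.33 to -0.04 (log2, relative to the array's 75th percentile). Young sample 3 had the lowest value of each of these 4 probes. On chromosome 6, 1 of 5 probes was well above background on all 6 arrays, at -4.06 to -3.05. None of the probes tested passed in the fit (lowest limma adjusted p = 0.234).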

How the results depend on the processing

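Regions higher in old samples numbered 253, and 477 with normexp background correction, 145 with the mean of the kept probes (chosen after seeing the data), 396 with every probe on its own, and 0 both with no filter on dim probes and with the replicate block. Lower regions numbered 49, and 157 with every probe on its own and again 0 without the filter and with the block. At an unadjusted p below 0.05 limma had 1217 regions without the filter (1055 higher) and 867 with the block (728 higher), among 11662 and 5554 of all names. Quantile normalization, cyclic loess, the deposited values, names detected on all 6 arrays and outlier spots kept gave 177 to 332 higher and 36 to 57 lower. Leaving out each replicate in turn gave 0 to 177 higher and 0 to 25 lower, against 0 to 558 and 1 to 596 over all names. The median change of 0.17 was 0.0881 with the deposited values and 0.14 to 0.20 with a sample left out. Strand pairs numbered 33, and 85 with normexp, 72 for names detected on all 6 arrays, 19 with the block, 11 with the mean of the kept probes, 4 without the filter, and 3 to 10 with a sample left out. Fewer tested intervals enter the all-array count (541) and more the unfiltered one (1067), and the causes were not tested.

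Same-numbered samples correlated at r = 0.16, -0.01 and 0.14 over 3267 regions in their deviations from the group means, so the replicate numbers were not taken to pair the samples. Samples of different number ran from -0.16 to 0.02. Young samples 1 and 3 correlated best with their own number, and young sample 2 did not.

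Of the 26 called regions that the naming rule took, 26 lost it without the filter, with the block and without old sample 3, 25 without old sample 2, 24 without young sample 2, 15 without young sample 3, 10 without young sample 1 and 6 without old sample 1. With the other alternatives 0 to 8 of those tested lost it. Among these 26 the only sign that turned was that of chr11:35805295-35817263_R with normexp (0.17), and over the 49 lower regions 40 kept their sign with normexp. Dim probes limit precision: the lowest signal still called above background was -4.74 to -3.92 (log2), and changes below it are not measured.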

Other observations

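Some region probes owed their level to a single array. Of the 6988 kept region probes, 31 (0.44%) had 1 array at least 2 log2 units above the next, against 55 of 24278 other kept probes (0.23%). The high array was an old one in 30 of the 31, with 18 on old array 1, 8 on old array 2 and 4 on old array 3. The 55 other probes also leaned to the old arrays, with 29, 17 and 2 on old arrays 1 to 3. Young arrays 1 to 3 held 0, 2 and 5 of them. These counts were chosen after the values were seen.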
